A study of Rattus norvegicus with 4 samples.

Results

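Hepcidin and iron handling were followed through 9 genes of the rat trigeminal nerve: Hamp, Tf, Tfrc, Fth1, Ftl1, Slc40a1, Slc48a1, Hmox1 and Hmox2. They were found by symbol among the 32623 genes of the deposited table, where they take 10 rows. Slc40a1 has 2 of these rows, of which 1 (ENSRNOG00000049995) holds no count and the other (ENSRNOG00000003872) was used. The genes were chosen with their TN and HC levels, the detection of Hamp beside Atf3 and their levels in myelin and marrow already known, so those values are given as a description, with no p for any of the 9 in those contrasts.

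RNA was counted on a Visium slide, whose barcoded spots capture polyadenylated RNA from a tissue section lying on them, and each molecule is counted once through its unique molecular identifier (UMI). Areas TN1, TN2 and TN3 each held the ganglion of the trigeminal nerve with its root and the start of its branches, from 1 wild-type rat with trigeminal neuralgia (TN) produced by compression of the trigeminal root on one side. The healthy control (HC) area held the same structures of 2 rats, which the barcodes do not tell apart, and counts as 1 sample. The rats were adult male Sprague-Dawley animals. The series description takes HC from the healthy side of animals of the TN group, whereas the methods describe sham-operated controls. The condition and the capture area cannot be told apart and every TN value is set against the same HC area. If the description holds, HC shares animals with TN.

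Hamp encodes hepcidin, a peptide hormone best known from the liver, which binds the iron exporter ferroportin (Slc40a1) and leads to its degradation. Cells take up iron bound to transferrin (Tf) through the transferrin receptor (Tfrc), store it in ferritin, built of heavy (Fth1) and light (Ftl1) chains, and release it through ferroportin. Heme is moved by the transporter HRG1 (Slc48a1) and broken down by the inducible heme oxygenase (Hmox1) and the constitutive one (Hmox2), which frees its iron. In nervous tissue, oligodendrocytes are rich in iron, transferrin and ferritin, and in the liver hepcidin is raised by the BMP/SMAD and the interleukin 6/STAT3 pathways.

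The Hamp promoter is shown because its gene had the widest gap between TN and HC of the 9. RefSeq promoters of build GRCr8 matched 5 of the 9 genes (Hamp, Tf, Tfrc, Slc40a1 and Hmox2). The stretch below covers chr1:95300322-95300421 on the minus strand, bases 150 to 51 before the annotated start, and capitals mark the motifs found.
Hamp: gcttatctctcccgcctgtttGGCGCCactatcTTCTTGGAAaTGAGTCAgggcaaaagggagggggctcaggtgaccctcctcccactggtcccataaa
Within the 250 bases before each start, on both strands, GGCGCC (the core of BMP-responsive elements) stood in 8.69%, the STAT motif TTCNNNGAA in 7.67% and the AP-1 motif TGANTCA in 6.34% of 33469 promoters. The Hamp promoter held 1 match to each, and the last 2 are separated by 1 base. It held no match to the CRE motif TGACGTCA (1.59% of promoters) or to TGACNNNGC (10.1%), the core of antioxidant response elements, which can overlap TGANTCA. Tfrc held 1 GGCGCC, the Hmox2 promoters 1 TGACNNNGC and 1 TTCNNNGAA, and Tf and Slc40a1 held none of the 5. These are matches of letters, not measured binding.

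The areas held between 1256 and 2013 spots and between 23546025 and 41335930 UMIs, with medians from 9487 UMIs per spot in TN1 to 30808 in TN2. Of 3573 barcode sequences, 2337 occur in more than 1 area, as areas of a slide share barcodes, and the number after the barcode separates them. Spots were clustered without the iron genes and named by marker genes. The ganglion region joined cluster 8, present in all areas, and cluster 4, which had 0 spots in HC. Of all marker lists, that of sensory neurons was the highest in cluster 4, though lower than in cluster 8, and its 10 leading genes held none of them and 2 nerve injury genes (Gal and Csrp3). The ganglion region had 199, 366 and 164 spots in TN1, TN2 and TN3 and 660 in HC, and all 10 of its measured sensory neuron markers were detected in every area. Central myelin had 126 to 430 spots per area, with median depths of 5166, 8330 and 4367 UMIs in TN1, TN2 and TN3 and 11423.5 in HC. The part of this depth difference in the levels of that region was not tested. Peripheral myelin had 13 spots in TN2 and 18 in HC, under the minimum of 20, so TN and HC were not compared there with these clusters.

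Hamp transcripts were found almost entirely in the TN areas. There were 393, 1038 and 374 Hamp UMIs in TN1, TN2 and TN3 and 5 in HC, or 16.7, 26.8 and 11.6 CPM (UMIs scaled to the same total in each area) against 0.121. Every TN area thus lay far above HC, and the TN mean was 18.4 ± 7.72 CPM (SD, n = 3). In the ganglion region the 3 TN areas had 297, 742 and 160 Hamp UMIs and HC had 3. The corresponding levels were 31.6, 47.3 and 23.4 CPM in TN and 0.116 CPM in HC. Relative to HC, TN1 was 273-fold higher (95% counting interval 92.6 to 1333), TN2 409-fold (139 to 1989) and TN3 202-fold (67.9 to 989.6). The intervals cover counting error only, and their width comes from the 3 HC counts. In sums over spots, more cells with a transcript and more transcripts per cell cannot be told apart.

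Among all 9 genes in the ganglion, 3 (Hamp, Fth1 and Hmox1) were higher and 3 (Tf, Slc48a1 and Hmox2) lower than HC in every TN area, shares near the 27.5% and 29.6% of all genes tested that were so. In central myelin 0 of 7 tested were higher and 5 lower (20.3% and 21.1% of all genes), and over all spots 2 of 9 were higher and 4 lower (28.7% and 30.6%). These counts are after TMM scaling, and the choice of the 9 genes had used the contrast.

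**Figure D1:**
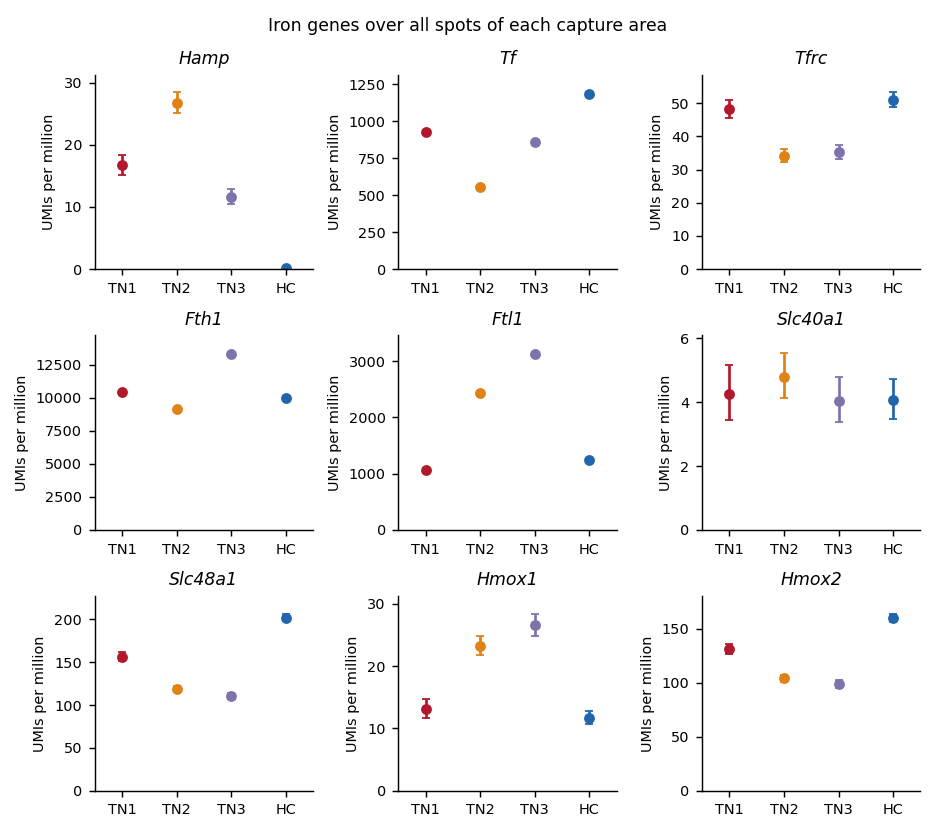
Level in CPM over all spots of each capture area for the 9 iron genes (1 panel per gene, linear axes from 0), with 95% counting intervals as bars. Hamp is near 0 in HC and between 11.6 and 26.8 in TN, whereas Tf, Tfrc, Slc48a1 and Hmox2 are highest in HC.

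A Hamp UMI was found in 50.3% of the ganglion spots of TN1 (exact binomial 95% interval 43.1 to 57.4), 70.8% in TN2 (65.8 to 75.4), 40.9% in TN3 (33.3 to 48.8) and 0.455% in HC (0.0938 to 1.32). The share in HC, 3 of 660 spots, lay below all 3 TN areas. Median depth of ganglion spots was 49116, 40862 and 41354 UMIs in TN and 36265 in HC. Thinned to 20000 UMIs per spot (chosen after seeing the data), which left out 17, 11 and 4 shallower spots in TN and 59 in HC, the shares were 34.6%, 53.8% and 27.5% in TN and 0.166% of 601 spots in HC. Thinned to 2000 UMIs they were 5.03%, 9.29% and 6.10%, and 0 of 660 spots in HC, which allows a share of up to 0.455%. In central neuron spots of TN1 and TN2, which lie outside the ganglion, 3.54% and 10.9% had a Hamp UMI at median depths of 12598.5 and 22644.5 UMIs, and in blood and bone (marrow) spots 6%, 1.54%, 4.76% and 0% did in TN1, TN2, TN3 and HC. Cluster 6, left unnamed, had larger shares, with 23.5%, 35.7% and 18.0% in TN and 0.256% in HC. Cluster 1, also unnamed, had 37.9% in TN2 and 12.3% in TN3, and connective tissue 33.6% and 7.84%. Of all Hamp UMIs of an area, the ganglion region held 75.6%, 71.5% and 42.8% in TN1, TN2 and TN3.

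The signal was unevenly spread within the ganglion. Single spots held at most 20, 15 and 12 Hamp UMIs in TN1, TN2 and TN3 and 1 in HC, and the tenth of spots with the most Hamp held 56.2%, 38.9% and 55.0% of the Hamp UMIs in TN1, TN2 and TN3. Between the 2 ganglion clusters, cluster 4 was higher in each area, at 66.2, 51.9 and 49.1 CPM against 19.4, 22.1 and 8.13 CPM in cluster 8. Within cluster 8 alone, which has the 660 HC spots, all 3 TN areas were above HC (0.116 CPM).

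Atf3, a transcription factor induced in sensory neurons by axon damage, was detected in most of the same spots. Of the ganglion spots with a Hamp UMI, 98 of 100 in TN1, 258 of 259 in TN2, 65 of 67 in TN3 and 2 of 3 in HC also had an Atf3 UMI. Among spots without Hamp, 71 of 99, 107 of 107, 88 of 97 and 115 of 657 had one. In TN2 Atf3 was present in nearly every ganglion spot, so detection alone separates nothing there. Thinned to 20000 UMIs, Atf3 was detected in 93.7%, 99.0% and 93.2% of the Hamp spots and 66.4%, 98.8% and 85.3% of the others in TN. At 2000 UMIs, with 10, 34 and 10 Hamp spots left, it was in 10%, 58.8% and 40% of them and 17.5%, 46.1% and 26.0% of the others, so the order turned in TN1. Pooled over spots, the Atf3 level was higher in those with Hamp in every TN area. It was 194 CPM against 84.1 in the others in TN1, 357 against 281 in TN2, and 212 against 138 in TN3. In HC the levels were 42.4 and 5.07 CPM, the former resting on 3 spots and 5 Atf3 UMIs.

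Grouped by Atf3 level, the share of ganglion spots with Hamp was higher in each successive class with 10 or more spots. It went from 6.67% of 30 spots without Atf3 to 74.6% of 59 spots with 2 to 5 Atf3 UMIs per 10000 in TN1. In TN3 the same classes gave 18.2% of 11 and 62.7% of 51 spots, and in TN2, where 1 spot lacked Atf3, the share went from 46.7% of 15 spots with up to 1 per 10000 to 80.3% of 61 spots with over 5. The class over 5 held 3 spots in TN1 (3 with Hamp) and 4 in TN3 (0 with Hamp). Spots of TN1 without Atf3 were shallower, with a median of 21145 UMIs against 50650 in the class from 2 to 5. In HC, 543 spots without Atf3 gave 0.184%.

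**Figure D2:**
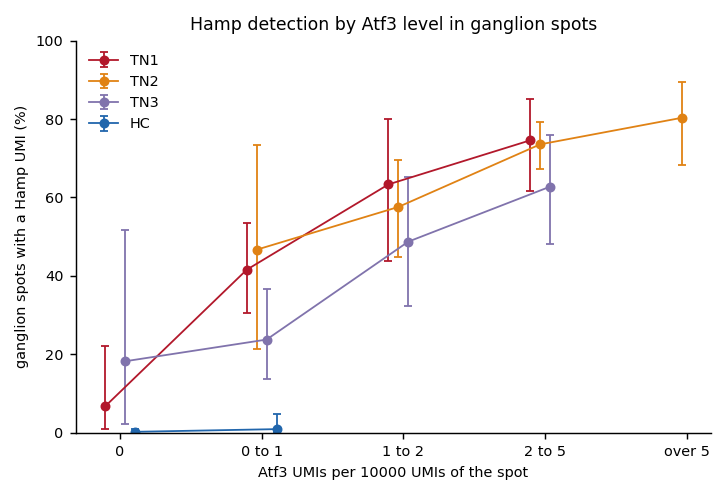
Share of ganglion spots with a Hamp UMI (%) against the Atf3 level of the spot in UMIs per 10000, by capture area, with exact binomial 95% intervals and classes of 10 or more spots. Shares reach 62.7% to 80.3% in the highest class shown of each TN area and stay under 1% in HC.

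The other genes of these spots were compared within TN. The choice of the 9 genes had not used these other genes, but it had used Hamp beside Atf3 in the same spots. Genes that vary with Atf3, the nerve injury genes included, are therefore no independent test. UMIs were summed over ganglion spots with and without a Hamp UMI in each TN area and tested with edgeR's quasi-likelihood test, the area as a block, leaving out Hamp and Atf3. Of 10443 genes, 318 (3.05%) passed a Benjamini-Hochberg adjusted p of 0.05, with 172 (1.65%) higher and 146 (1.4%) lower in spots with Hamp. DESeq2 called 62 (0.594%), with 38 (0.364%) higher and 24 (0.23%) lower.

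The 10 higher genes with the smallest p were LOC100912228, Vip, Reg3b, Gal, Vgf, Stac2, Kif22, Gadd45a, Hspb1 and Cd74. Vip, a neuropeptide induced in injured sensory neurons, stood at 66.7, 80.7 and 76.9 CPM in the Hamp spots of TN1, TN2 and TN3 against 20.9, 47.0 and 42.6 CPM in the others. Its log2 fold change was 1.03 ± 0.09 (SE; adjusted p = 3.3e-20 by edgeR). The SE and p of this fit lean on a dispersion pooled over genes and on spots of the same 3 areas. They can therefore understate the spread of a difference between rats. The lectin gene Reg3b (58.6, 97.4 and 62.4 CPM against 27.4, 57.7 and 19.0) rose by 1.04 ± 0.09, and LOC100912228 by 1.33 ± 0.10, the smallest p of all. In each of these genes the Hamp spots were higher in all 3 areas. Gal (galanin), the secreted peptide precursor Vgf, Stac2 and the stress response gene Gadd45a rose by 0.54 to 0.87, and the small heat shock protein gene Hspb1 by 0.42. Kif22, a kinesin, and Cd74, the invariant chain of MHC class II, rose by 0.60 and 0.47. All 15 leading genes kept their direction under DESeq2, where 10 passed; Kif22, Gadd45a, Cd74, Tac1 and Scn11a did not.

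Of the 8 nerve injury genes tested, which leave out Atf3 and the low-count Sox11, 6 rose in the Hamp spots: Gal (0.54 ± 0.05), Csrp3 (0.57 ± 0.08), Flrt3 (0.61 ± 0.08), Jun (0.31 ± 0.05), Gap43 (0.38 ± 0.05) and Ecel1 (0.49 ± 0.14). Csrp3 encodes a LIM protein, Jun an AP-1 subunit and Gap43 a growth cone protein. Npy (1.0 ± 0.35, adjusted p = 0.103 by edgeR) and Sprr1a (0.35 ± 0.17, adjusted p = 0.380) did not pass. DESeq2 called 4 of the 8. The median log2 fold change of the 8 was 0.51, beside 0.00 over all genes tested.

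The 5 lower genes with the smallest p were Mt3, Tac1, Calca, Nmb and Scn11a. Tac1 (substance P precursor) fell by 0.45 on the log2 scale, Calca (CGRP) by 0.38, Nmb (neuromedin B) by 0.58, the sodium channel gene Scn11a by 0.48 and the metallothionein gene Mt3 by 0.39. Among the sensory neuron markers tested, Calca, Tac1, Avil and Scn10a fell and Prph, the peripherin gene, rose by 0.20 ± 0.04, all by edgeR. DESeq2 called 3 of 9 such markers lower, Tac1 not among them, and 1 higher, beside 0.23% and 0.364% of all genes. Of 7 macrophage markers, C1qa (0.24 ± 0.06) and C1qc (0.34 ± 0.08) rose by edgeR, beside 1.65% of all genes, and DESeq2 called 0 of the 7. All 7 were higher in every area, as 16.5% of all genes were. Whether the mixture of cells under the spots accounts for these differences was not tested.

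None of the other 8 iron genes passed in the Hamp spots, by edgeR or DESeq2. Ftl1 had a log2 fold change of 0.10 ± 0.04 (adjusted p = 0.296 by edgeR), which passed in spots above the median UMI count of their area (adjusted p = 0.0290). Fth1 had 0.07 ± 0.04, Tf 0.08 ± 0.06, Tfrc -0.01 ± 0.09 and Hmox2 -0.05 ± 0.06. Slc40a1, the target of hepcidin, had 0.48 ± 0.34, a spread that leaves its direction unknown. Of 62 tested genes on the iron lists, edgeR called 1, the iron-sulfur cluster scaffold Iscu, which fell by 0.17. Of all genes tested, edgeR called 3.05%, with 1.4% lower. DESeq2 called 0 of the 62.

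**Figure D3:**
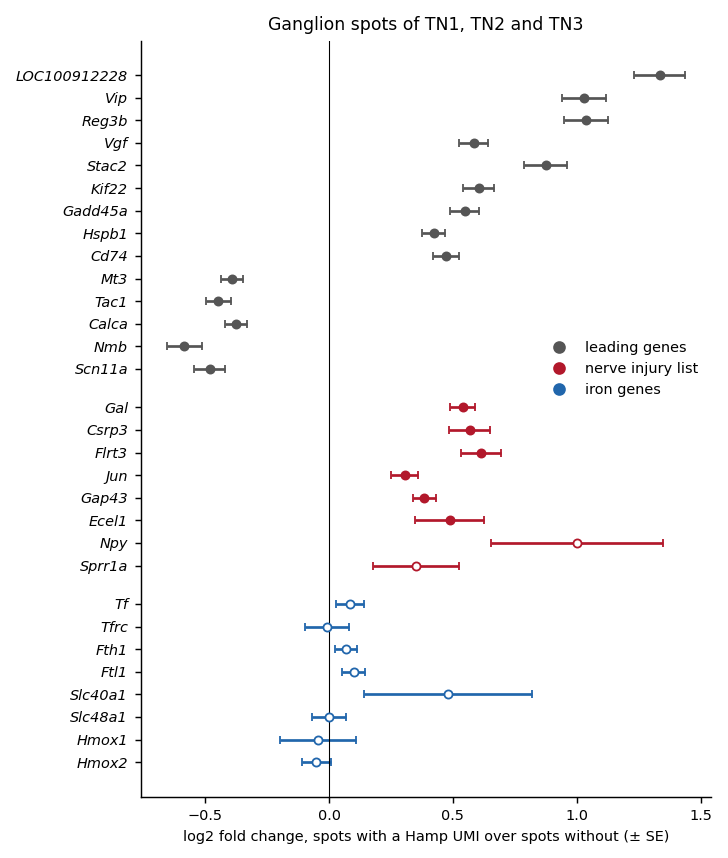
Log2 fold change ± SE of genes in TN ganglion spots with a Hamp UMI over those without, from edgeR with the capture area as a block. Filled points passed an adjusted p of 0.05, as 6 of the 8 nerve injury genes did and none of the 8 iron genes.

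The comparison was repeated within each ganglion cluster. Gal, Csrp3, Vip, Reg3b, LOC100912228, Vgf and Hamp were among the 10 leading genes of cluster 4 itself. In spots of cluster 4 only, 37 genes passed, and in cluster 8 only, 10 did, a split chosen after seeing the data. Of the 15 leading genes, 6 passed in cluster 4 (LOC100912228, Vip, Reg3b, Stac2, Tac1 and Scn11a) and 6 in cluster 8 (LOC100912228, Reg3b, Vgf, Stac2, Kif22 and Gadd45a). No nerve injury gene passed in either cluster. Cluster 4 held 52, 326 and 70 spots and cluster 8 held 147, 40 and 94 spots in TN1, TN2 and TN3, so fewer UMIs stood behind each of these fits. All 15 leading genes kept their direction in cluster 8 and 13 did in cluster 4, where Gal (-0.11 ± 0.09) and Nmb (0.05 ± 0.13) had the other sign. Vip had a log2 fold change of 0.58 in cluster 4 and 0.74 in cluster 8, and Reg3b 0.49 and 1.59.

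Over the 26 combinations of region and area with 20 or more spots, the profiles most like that of Hamp among 13551 genes were those of Csrp3 (Pearson r = 0.92), Vip (0.91), Reg3b (0.89), Gal (0.88) and Ecel1 (0.87), on log2 of the CPM plus 5. Within the 22 TN combinations the values were 0.87, 0.90, 0.84, 0.86 and 0.85. Atf3 ranked 24th with 0.76, and had 0.60 within the TN combinations. In cluster 1, TN2 and TN3 had 265 and 279 CPM of Atf3 and 17.1 and 6.92 CPM of Hamp. The TN means in the ganglion were 216 CPM of Atf3 and 34.1 CPM of Hamp. The combinations share libraries and the TN to HC contrast, so these correlations are descriptive.

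Genes of hepatocytes, the best known source of hepcidin, did not all follow Hamp. Albumin (Alb) had 86, 31 and 2 UMIs in TN1, TN2 and TN3 and 15 in HC, Apoa1 14, 17, 36 and 21, Apoa2 4, 5, 7 and 8, Fgb 3, 0, 1 and 0, and Fga 0 in every area. Serpina1 had 399, 846, 308 and 599 UMIs. The summed level of the 6 hepatocyte genes found was 21.5, 23.2 and 11 CPM in TN and 15.6 in HC, and overlapped between the groups. In the ganglion the sum was 32.6, 42.1 and 20.9 CPM in TN and 18.4 in HC, above HC in every TN area, as 1 of the 6 genes was. The part of these transcripts in the Hamp values was not tested.

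Transferrin was a gene of the central side of the nerve. Tf stood at 4314, 4583 and 4130 CPM in TN central myelin and 5327 in HC, and at 4283 and 5026 in the astrocyte spots of TN2 and TN3. In the ganglion it was 206, 170 and 190 CPM in TN and 390 in HC. TN areas lay below HC in both regions, by a ratio of 0.527 in TN1, 0.437 in TN2 and 0.486 in TN3 in the ganglion and by 0.810, 0.860 and 0.775 in central myelin. The fitted log2 fold change was -1.11 ± 0.19 in the ganglion, -0.36 in central myelin and -0.68 over all spots. Central myelin markers summed over 8 genes were also lower in the TN ganglion regions, at 173, 91.5 and 74.0 CPM against 207 in HC. Of the 8, 4 were lower and 1 higher in every TN area. In central myelin itself their sum was higher in TN, at 2852, 3148 and 2895 CPM against 2688, with 5 genes higher and 1 lower in every TN area. The part of these markers in the Tf differences was not tested.

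Tfrc varied less. Its ganglion level was 53.9, 35.3 and 50.2 CPM in TN1, TN2 and TN3 and 50.03 in HC, so TN and HC overlapped. Over all spots it was 48.2, 34.2 and 35.3 CPM against 51.1 in HC, each TN area below HC, though the 95% counting interval of the TN1 ratio to HC (0.877 to 1.01) included 1. Between regions it was highest in central neuron (mean 59.2 CPM) and central myelin (58.5), which overlapped, and lowest in connective tissue (22.0), which did not overlap the next region above it.

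Ferritin heavy chain had opposite directions in ganglion and central myelin. Fth1 was 7649, 8095 and 7672 CPM in the TN ganglion and 6821 in HC, a ratio of 1.12 to 1.19 with every TN area higher. In central myelin it was 16710, 16332 and 18832 CPM in TN and 22725 in HC, a ratio of 0.719 to 0.829 with every TN area lower. Fitted log2 fold changes were 0.13 ± 0.18 and -0.46 ± 0.23. In spots ranked by markers instead of clusters the directions were the same, with 8318, 7795 and 8542 against 6532 CPM for the fifth of spots richest in sensory neuron markers and 12280, 15280 and 17941 against 20899 CPM for the tenth richest in central myelin markers. The difference between the 2 regions was not tested.

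Ferritin light chain separated TN2 and TN3 from TN1 and HC. Ftl1 was 945 CPM in the TN1 ganglion and 950 in HC, and 2023 and 1601 in TN2 and TN3. In central myelin, TN1 had 1545 CPM, HC 2459, TN2 2837 and TN3 3058. The groups overlapped in both regions, and TN1 was lowest in both. The number of Fth1 UMIs per Ftl1 UMI over all spots was 9.81, 3.78 and 4.27 in the TN areas and 8.01 in HC, and TN1 and HC stood above TN2 and TN3 in the ganglion (8.09, 4.0, 4.79 and 7.18) and in central myelin as well (10.8, 5.76, 6.16 and 9.24). The macrophage list, 7 genes higher in all TN areas, summed to 426, 919 and 1336 CPM in the TN areas and 283 in HC, and its part in the Ftl1 levels was not tested. Both ferritin genes have processed copies in rat genomes, and how reads that match several places were counted is not given in the sources used here.

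**Figure D4:**
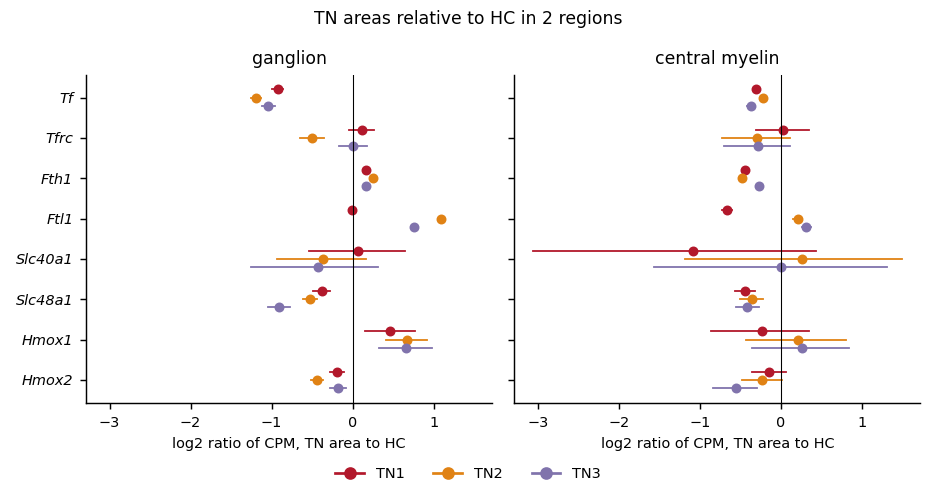
Log2 ratio of CPM in each TN area to HC for the 8 iron genes other than Hamp, in the ganglion (left) and central myelin (right), with 95% counting intervals as lines. Tf and Slc48a1 lie below 0 in all TN areas in both regions, and Fth1 lies above 0 in the ganglion and below it in central myelin.

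Slc40a1, the ferroportin gene that hepcidin acts on, was sparse. It had 35, 43 and 18 UMIs in the TN ganglion and 92 in HC, or 3.72, 2.74, 2.63 and 3.55 CPM, and over all spots 4.24, 4.80, 4.03 and 4.06 CPM. TN and HC overlapped, and no difference was detectable at this depth.

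Slc48a1, the heme transporter gene, was 105, 94.9 and 72.8 CPM in the TN ganglion and 137 in HC, and 411, 435 and 419 CPM in TN central myelin against 558 in HC. TN lay below HC in both regions without overlap, with log2 fold changes of -0.65 ± 0.23 and -0.47. Hmox2 was 150, 126 and 150 CPM in the TN ganglion and 171 in HC, and 151, 142 and 113 in TN central myelin against 167, again below HC in every area. Hmox1 went the other way in the ganglion, at 13.9, 16.0 and 15.9 CPM in TN and 10.1 in HC, but overlapped in central myelin (19.2, 26.1 and 27.2 against 22.7). Over all spots Hmox1 was 13.2, 23.3 and 26.6 CPM against 11.7, with TN1 nearest to HC.

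Each gene had its own order of regions, read from the mean over areas. Hamp was highest in the ganglion (25.6 ± 19.7 CPM, SD over 4 areas, HC included), then in cluster 6 (14.98), which stayed unnamed between Schwann and sensory neuron markers, and all neighbours overlapped. In HC every region held 0.195 CPM or less of Hamp. Tf was highest in astrocyte (4654) and central myelin (4589 ± 526), which overlapped each other and stood apart from blood and bone (1970 ± 230). Fth1 was highest in peripheral myelin (20715), astrocyte (20646) and central myelin (18650 ± 2931), each overlapping the next, and clear of blood and bone (11807 ± 2647), while the ganglion (7559 ± 533) and central neuron (6251) were lowest and apart. Ftl1 was highest in connective tissue (4661) and lowest in central neuron (716), which stood apart.

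Slc48a1 was highest in central myelin (456 ± 68.7), apart from astrocyte (234), and lowest in connective tissue (86.4), which overlapped its neighbour. Hmox1 was highest in astrocyte (59.5) and then connective tissue (47.1), each apart from the next region, and lowest in central neuron (7.84). Hmox2 was highest in the ganglion (149 ± 18.3), central neuron (144) and central myelin (143), which overlapped, and lowest in peripheral myelin (67.4). Slc40a1 ranged from 3.16 in the ganglion to 7.55 in connective tissue, with neighbours overlapping except between cluster 1 and cluster 6. Astrocyte, connective tissue, central neuron, peripheral myelin and cluster 1 values are means of 2 TN areas, since these regions had under 20 spots in the other areas.

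The marrow spots were not of 1 tissue. Their marker scores were 2.97 for blood and bone, 1.34 for central myelin, 1.32 for pituitary and 0.90 for astrocyte, on the log2 scale. Median depth was 5233.5, 4477 and 3788 UMIs in TN and 6917 in HC. The part of other tissue in the levels below was not tested. In marrow, Tf was 1640, 2162 and 1994 CPM in TN1, TN2 and TN3 and 2083 in HC. Fth1 there was 10640, 8959 and 15136 CPM against 12491, so both overlapped between TN and HC. Slc48a1 was lower in every TN area (183, 173 and 165 against 218 CPM). Peripheral myelin spots of TN1 and TN3 had 497 and 540 CPM of Tf and 21502 and 19928 CPM of Fth1. In the tenth of spots of each area richest in peripheral myelin markers, Ftl1 was 1886, 2706 and 3025 CPM in TN and 1466 in HC. Hmox1 was 16.7, 22.0 and 13.4 against 6.82, and both were higher in every TN area, as Hamp was, with 1 Hamp UMI in HC. Tf (519, 287 and 501 against 533), Tfrc (22.7, 26.3 and 34.5 against 42.4) and Hmox2 (61.5, 74.1 and 74.4 against 121) were lower in every TN area. Fth1 (21407, 11062 and 20484 against 12679), Slc40a1 and Slc48a1 overlapped between TN and HC.

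**Figure D5:**
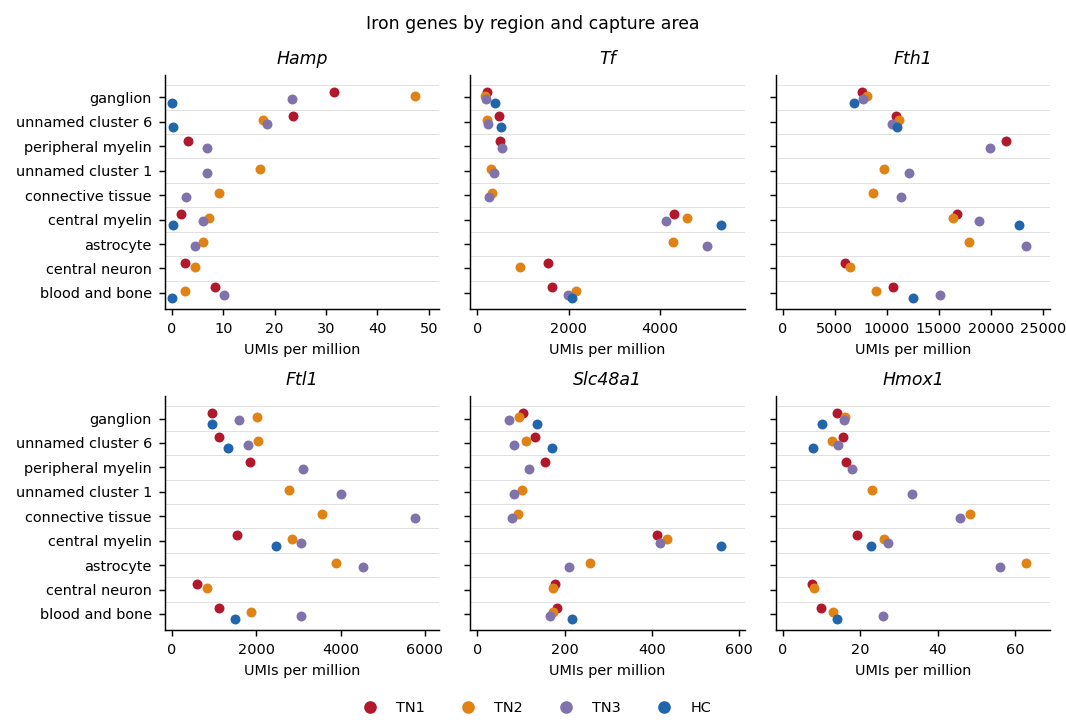
Level in CPM of 6 iron genes by region (rows) and capture area (colours), for regions with 20 or more spots in the area. Hamp is highest in TN ganglion spots, Tf and Slc48a1 in central myelin or astrocyte spots, and Ftl1 and Hmox1 in astrocyte and connective tissue spots.

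Across the wider iron lists the TN areas did not move one way. Of 69 list genes tested in the ganglion, 22 were higher and 20 lower than HC in all 3 TN areas, beside 27.5% higher and 29.6% lower of all 12822 genes, and their median log2 fold change was -0.00 beside 0.03. Among 21 hepcidin control genes, Hamp included, 11 were higher and 2 lower, with a median of 0.25. Tmprss6, a protease that restrains hepcidin, was 2.22, 6.47 and 2.04 CPM in TN and 0.160 in HC after TMM scaling, and the kinase gene Jak2 19.9, 30.9 and 21.1 against 12.6. Stat3 (189, 231 and 209 against 198) and Id1, a BMP target gene (37.9, 37.3 and 40.8 against 35.0), differed little. Smad1 (45.3, 49.0 and 38.7 against 27.9), Il6r (5.72, 9.71 and 7.13 against 3.59) and Acvr1 (21.4, 29.2 and 24.5 against 16.8) were higher in every TN area. The 2 lower genes were Hfe and Tfr2.

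Of 16 heme genes, 11 were lower and 2 higher in all TN ganglion areas, beside 29.6% and 27.5% of all genes, with a median of -0.29 beside 0.03. The list holds Slc48a1, Hmox1 and Hmox2, which were chosen on this contrast. Alas2, the erythroid first enzyme of heme synthesis, was 8.37, 4.67 and 15.3 CPM against 22.1 in HC, and Alad, the next enzyme, 35.7, 41.6 and 46.3 against 66.4. The sum of the 8 blood and bone markers was lower too, at 399, 120 and 270 CPM against 466 in HC, with 6 of the 8 lower in every TN area. Their part in the heme gene differences was not tested. Among export genes, Cp (ceruloplasmin, a ferroxidase) was 5.72, 17.7 and 14.1 CPM against 1.96, and Heph (hephaestin) 2.22, 6.16 and 3.93 against 1.36. Cp was higher in all TN areas in central myelin as well, at 7.91, 29.4 and 23.4 against 4.07 CPM, where Gpx4, a lipid peroxidase, was lower (1017, 881 and 956 against 1416).

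With 3 TN sums against 1 HC sum, edgeR called 0 of 12822 genes in the ganglion, 0 of 9027 in central myelin and 0 of 14902 over all spots (0% in each), hence none of the 9 iron genes, and 1186, 298 and 1271 genes had an unadjusted p under 0.05 (9.25%, 3.3% and 8.53%). DESeq2 called 118 (0.92%), 4 (0.0443%) and 158 (1.06%). Of the 9 genes, DESeq2 counted 1 higher and 1 lower in the ganglion (0.757% and 0.164% of all genes), 0 of 7 in central myelin (0.0332% and 0.0111%) and 1 higher and 0 lower over all spots (0.852% and 0.208%). Without TN1, edgeR called 1053 genes in the ganglion (8.16%), 110 in central myelin (1.31%) and 2171 over all spots (14.8%), with 4, 0 and 4 of the 9 genes among them. These counts of the 9 test nothing, since the choice had used the contrast. Of the other iron-list genes, DESeq2 called Tmprss6 and Cp in the ganglion and Cp and Heph over all spots. HC gives no spread of its own and was assumed to vary like TN.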

How the data were processed

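The authors counted UMIs with Space Ranger 1.2.0, per the file headers, and deposited raw counts per gene and spot for 4 capture areas in 1 matrix. Genome build and annotation: not given in the sources used here. A number after each barcode gives the area (TN1 to TN3, then HC). Total UMIs per area were 23546025 to 41335930, and intervals cover counting error only. The spread between TN areas joins that between 3 animals with that between their sections and capture areas, and HC has none of its own.

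Spots were normalised with sctransform 0.4.2 (Seurat 5.3.0) on 16088 genes, and K-means gave 10 clusters from 30 principal components of the 3000 variable genes without the 26 iron-list genes among them. A cluster took the name of its highest marker list where that led by 0.25 on the log2 scale of CPM plus 5. Doublets were not called, since a spot can hold several cells. UMIs were summed per area and region and tested in R 4.3.3 with edgeR 4.0.16 (TMM, filterByExpr, quasi-likelihood, Benjamini-Hochberg) on 3 TN sums and 1 HC sum, which leaves 2 residual degrees of freedom. DESeq2 1.42.0 was an alternative. Ganglion spots with and without a Hamp UMI were compared within TN, the area as a block. The sum scripts were tested on simulated data.

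The genes, gene lists and comparisons were chosen with earlier results of these data known. The text names all 9, iron-list genes past the threshold in a fit or else the 3 largest rises and 3 largest falls with all TN areas on one side of HC, the 5 genes most correlated with Hamp, the 10 higher and 5 lower genes of smallest p in the Hamp spots, and the nerve injury and hepatocyte lists. Jak2, Stat3, Id1, Smad1, Il6r, Acvr1, Hfe, Tfr2 and the sensory neuron and macrophage markers were named after their values were seen. The result of 1 sensory neuron marker is not reported here.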

Additional observations from a re-analysis of the deposited data

Results flagged for a closer look

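Fth1 had every TN area above HC in the ganglion and every TN area below HC in central myelin, with log2 fold changes of 0.13 ± 0.18 and -0.46 ± 0.23 (SE from edgeR). Neo1, the gene of neogenin, a receptor that takes part in hepcidin control, did the same with 0.12 ± 0.28 and -0.14 ± 0.29. These opposite directions between regions are why both are given here, and the difference between the regions was not tested for either gene.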

How the results depend on the processing

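No paired analysis was possible because HC is 1 area and carries no replicate number that the TN areas share. In the ganglion the count of genes past the threshold went from 0 to 118 with DESeq2, 21 without a filter on low counts, and 5 in cluster 8 alone, and from 0 to 1053 when 1 TN area was left out (1053 without TN1, 29 without TN2, 0 without TN3). Spots ranked by marker share gave 0 genes, and 1575 without TN1. In central myelin DESeq2 gave 4, no filter 3, and leaving out 1 TN area 0 to 110, the 110 without TN1. Over all spots DESeq2 gave 158 and leaving out 1 TN area 0 to 2171, the 2171 without TN1. The 318 genes of the Hamp spots became 62 with DESeq2, 37 in cluster 4 only, 10 in cluster 8 only, and 135 to 299 without 1 TN area, with 183 without TN1 and 135 without TN3.

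The share of ganglion spots with Hamp became 5.03%, 9.29%, 6.10% and 0% in TN1, TN2, TN3 and HC at 2000 UMIs per spot, and 34.6%, 53.8% and 27.5% in TN at 20000. The cause of these changes was not tested, beyond the fewer spots, areas or UMIs that some alternatives use. The log2 fold changes of the 9 genes between TN and HC (25 values, 257 alternatives) changed sign in 12 alternatives of 5 values whose areas fell on both sides of HC or that lay near 0. These were Tfrc in the ganglion (up to 0.07), Ftl1 (0.22) and Hmox1 (-0.11) in central myelin, and Fth1 (-0.11) and Slc40a1 (-0.02) over all spots. The 1 value that moved by more than its error was Hamp in cluster 8 alone (6.95). In the Hamp spots 77 of 78 alternatives for the 8 iron genes left the call as it was, while 14 changed the sign of an uncalled value, in 5 genes (Tfrc, Ftl1, Slc48a1, Hmox1 and Hmox2). Of 126 levels by region with 8 or 12 clusters, 15 moved by more than their spread. Peripheral myelin was not fitted with 10 clusters, since TN2 had 13 spots and HC 18. With 8 clusters edgeR called 0 of 10347 genes there (1471 at an unadjusted p under 0.05), and with ranked spots 449 of 10534 (4.26%), with 0 of the 9 genes in either, and DESeq2 and the other settings were not run there. Low counts limit Slc40a1, and Hamp in HC.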

Other observations

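The areas held unlike mixtures of tissue. Blood and bone had 100, 65 and 189 spots in TN1, TN2 and TN3 and 514 in HC. Sensory neuron markers over all spots summed to 4555, 4188 and 2983 CPM in TN and 6440 in HC. The part of this in differences over all spots, here and above, was not tested. Other iron genes also differed between the TN areas and HC over all spots, with values after TMM scaling. Lcn2, a siderophore-binding protein, was 7.32, 7.41 and 8.82 CPM in TN1, TN2 and TN3 and 16.6 in HC. Steap3, an endosomal ferrireductase, was 37.9, 25.6 and 25.9 CPM against 57.3. Meltf, the melanotransferrin gene, was 0.336, 2.09 and 4.58 CPM against 0.252. None passed an adjusted p of 0.05 by edgeR. In central myelin Slc39a14, a metal transporter, was 10.9, 11.6 and 11.7 CPM in TN and 6.11 in HC, and Blvra, which reduces biliverdin, 35.9, 31.2 and 32.4 against 42.4.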
